A study of Mus musculus with 12 samples.

Results

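The genes described here encode, from the cell nucleus, the protein subunits of the 5 complexes of oxidative phosphorylation in mouse liver. They were taken from the deposited table by name, as protein-coding genes whose symbol starts with Nduf, Uqcr, Cox4 to Cox8 or Atp5, together with Sdha to Sdhd. The rule found 88 of the 13267 genes in the table. Complex I has 38 of them, and 8 more are complex I assembly factors, named Ndufaf, which help to build that complex and are not part of it. Complex II has 4, complex III has 8, complex IV has 13 and complex V has 17. Another 5 genes of these names in the annotation, Cox4i2, Cox6a2, Cox7b2, Cox8b and Cox8c, all of complex IV, were not analysed here. The subunits that the mitochondrial genome itself encodes were not analysed here either, since the table holds 0 genes of that chromosome.

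Oxidative phosphorylation takes place in the inner membrane of mitochondria. Complex I oxidises NADH and complex II oxidises succinate, and both pass their electrons through coenzyme Q to complex III, which reduces cytochrome c. Complex IV hands these electrons to oxygen, and complex V, the ATP synthase, uses the proton gradient that complexes I, III and IV build up to make ATP. Most subunits come from nuclear genes, while a few that sit in the membrane core of complexes I, III, IV and V come from mitochondrial DNA. The liver depends on this pathway to burn fatty acids, and its state in fatty liver is a long-standing question in the field.

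Liver RNA was sequenced from 12 C57BL/6 mice made obese, with hepatic steatosis, by a high-fat diet. In 6 mice a scaffold control was given under the skin, and in 6 mice 4-hydroxyphenylacetic acid (4-HPAA), a phenolic acid that gut bacteria release from dietary polyphenols and amino acids. Both were given for 6 weeks, and the high-fat diet, the obesity and the steatosis are common to both groups, so no lean liver is in the comparison. The labels give neither age nor sex, and number the mice 1 to 6 in each group and give no litter, cage or batch, so each p-value here reflects the variation among these samples only. The question is whether messenger RNAs of the complexes differ with 4-HPAA in steatotic liver.

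The deposited values are read counts that the authors scaled by library and rounded, called normalised read counts here. They sum to between 22869813 and 25255447 per library, from an estimated 22389551 to 26921499 reads. All 10 hepatocyte markers are in the table, and summed to between 2584233 and 3172677 in controls and between 2319543 and 2893718 with 4-HPAA. On the first principal component over all genes the 4-HPAA libraries were spread out. Replicates 1, 2 and 5 lay at 37.8, 31.1 and 28.65, and replicates 3, 4 and 6 at 12.2, −10.9 and −1.15. Controls lay between −31.5 and 2.02. The library of 4-HPAA replicate 3 stood apart from the rest, at −56.4 on the second principal component against −7.52 to 17.0 for the other 11. The results on each complex and each list, and those on single genes that rest on this library, are therefore given with and without it. The reads of 4-HPAA replicates 1, 2 and 5 were the fewest, at 22389551, 23352567 and 23768844. In bulk liver, fewer cells of a type and less messenger RNA per cell cannot be told apart.

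No gene of the 5 complexes differed between the groups at an adjusted p under 0.05. The test (limma on log2 of the value plus 1, Benjamini-Hochberg over all 12720 genes tested) called 0 of 87 genes, against a background of 0% of all genes. Of the 88 genes, 1 was too low to test: Cox6b2, a subunit of complex IV known from testis, had values between 2 and 12. The smallest adjusted p among the 87 was 0.193, for Cox7a1, and without 4-HPAA replicate 3 it was 0.15, for Uqcr11. At an unadjusted p under 0.05, 2 of the 87 were lower with 4-HPAA, or 2.3%, while 7.56% of all genes tested were, and 0 were higher, while 7.26% of all genes were. The groups overlapped for every one of the 87, and 0.66% of all genes tested had groups that did not overlap. Without 4-HPAA replicate 3 the groups still overlapped for all 87, and did not for 1.34% of all genes.

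The differences were small as well as uncertain. A difference of at least 0.3 on the log2 scale in either direction was reached by 2 of the 87 genes, Cox7a1 and Uqcrb, or 2.3%, while 19.4% of all genes tested reached it. The 95% interval of the difference lay wholly between −0.5 and 0.5 for 83 of the 87, or 95.4%, while it did so for 59.9% of all genes tested. The other 4 were Cox7a1, Uqcrb, Ndufaf4 and Ndufa4l2. For 83 of the 87 genes a difference beyond those bounds is thus outside the interval.

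Within that narrow range, more of the genes were lower than higher with 4-HPAA. The difference, 4-HPAA minus control, was negative for 64 of 87 genes, or 73.6%, while it was negative for 50.2% of all genes tested. Its median over the 87 was −0.06, and over all genes −0.00. Without 4-HPAA replicate 3 the negative differences came to 74 of 87, or 85.1%, and 47.8% of all genes. The median over the members was then −0.11, and over all genes 0.01. The count of genes lower at an unadjusted p under 0.05 was 15 of 87 without that library, or 17.2%, beside 9.06% of all genes, and 0 were higher, beside 10.6% of all genes, which makes 17.2% of the members and 19.6% of all genes in either direction. None of the 15 passed the adjusted threshold, and genes of 1 pathway vary together, so the counts describe these libraries.

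**Figure D1:**
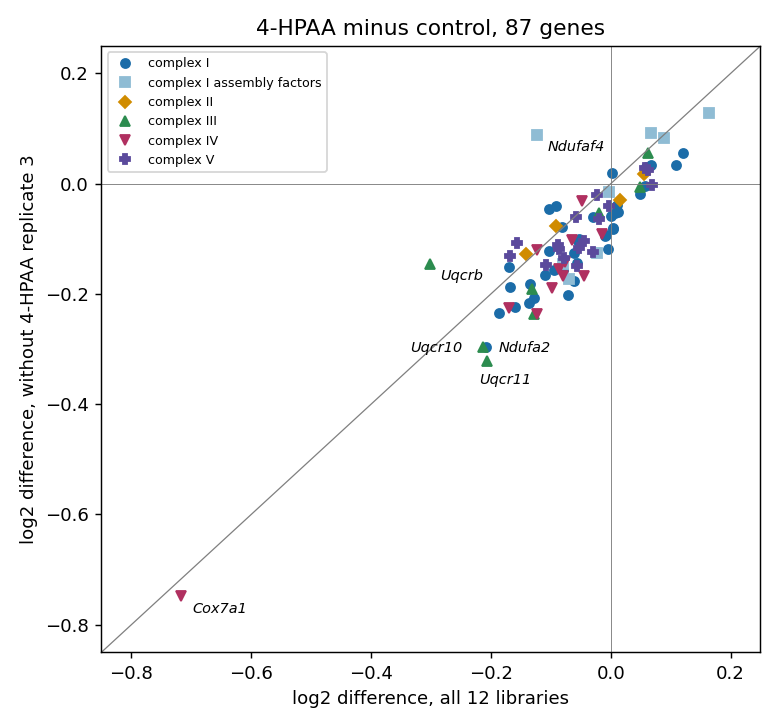
Log2 difference (4-HPAA minus control) of each of the 87 genes tested, with all 12 libraries on the x axis and without 4-HPAA replicate 3 on the y axis; each point is 1 gene, marked by complex, and the diagonal marks equal values. Most points lie below the diagonal, Cox7a1 stands far from the others, and Uqcrb and Ndufaf4 lie above it.

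The libraries did not move as 2 groups. For each library, the median deviation of the 87 genes from the control mean was taken on the log2 scale. The 6 controls lay between −0.09, in replicate 5, and 0.06, in replicate 2. The 4-HPAA libraries spread wider: −0.24 in replicate 1, −0.16 in replicate 2, 0.23 in replicate 3, 0.05 in replicate 4, −0.08 in replicate 5 and −0.04 in replicate 6. Replicates 1 and 2 alone lay below every control, replicate 3 lay above every control, and the other 3 lay in the control range. The same deviation over all genes tested stayed between −0.00 and 0.01 in every library. As a share of all normalised reads, the 88 genes made up 1.41 to 1.48% in controls, and 1.22, 1.25, 1.61, 1.46, 1.33 and 1.38% in 4-HPAA replicates 1 to 6.

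Which library was at the extreme was much the same from gene to gene. Of the 87 genes, 54 were highest of all 12 libraries in 4-HPAA replicate 3, or 62.1%, while 20.01% of all genes tested were. Of the same 87, 36 were lowest in 4-HPAA replicate 1 and 22 in 4-HPAA replicate 2. The share of all genes tested that were lowest in these libraries was not taken, so these counts have no background. In replicate 1, 77 of the 87 lay below the control mean, in replicate 2 it was 74, and in replicate 3 it was 19. The counts of lower genes rest on these libraries: without replicate 1 the median difference of the 87 was −0.02, and without replicate 2 it was also −0.02. Replicates 1 and 2, and replicate 5 after them, are also the libraries with the fewest reads, and the part of depth in their lower values was not tested. Albumin, the most abundant of the 10 hepatocyte markers, was lower with 4-HPAA, by a difference of −0.38 (SE 0.098, limma adjusted p = 0.148). Over the 10 markers the median was 0.06, with 4 negative and 6 positive, and 0.09, with 3 negative, without replicate 3. The share of albumin in the total was 7.59 to 8.72% in controls. In 4-HPAA replicates 1 to 6 it was 4.98, 6.38, 5.70, 7.58, 5.30 and 6.49%, each below every control. Its part in the lower values was not tested. Among controls, replicate 5, with the most reads of all at 26921499, had the lowest median.

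**Figure D2:**
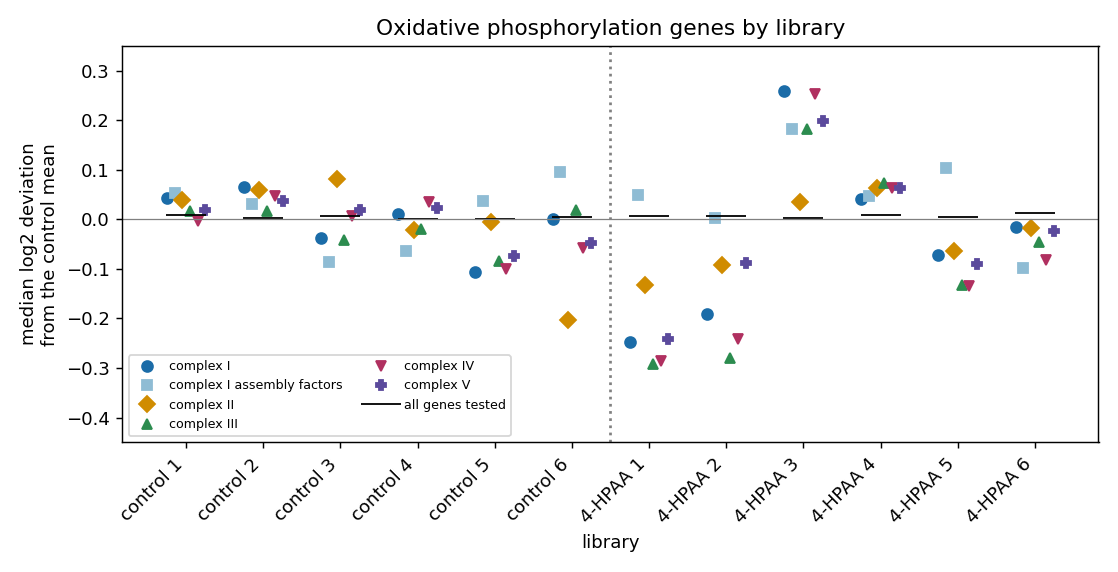
Median log2 deviation from the control mean (y axis) in each of the 12 libraries (x axis), for each complex and, as a short line, for all genes tested. Complexes I, III and IV lie lowest in 4-HPAA replicates 1 and 2 and highest in 4-HPAA replicate 3. Complex V lies lowest in 4-HPAA replicate 1, with replicates 2 and 5 both at −0.09, and highest in replicate 3. All genes stay near 0.

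Complex I is the largest of the 5, with catalytic core subunits that carry its flavin and iron-sulphur clusters and many accessory subunits around them. Its 38 genes had a median difference of −0.06, with 25 negative, and 1 of them, Ndufa3, had an unadjusted p under 0.05. Without 4-HPAA replicate 3 the median was −0.10, with 33 negative and 7 at an unadjusted p under 0.05, all lower: Ndufa2, Ndufa3, Ndufa5, Ndufa7, Ndufa13, Ndufb7 and Ndufs6. All 7 are accessory subunits. Over all genes tested 7.56% were lower at that p with all libraries and 9.06% without 4-HPAA replicate 3. In that library the median deviation of the complex was 0.26, and 27 of the 38 genes had their highest value there.

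Ndufa3, a small accessory subunit of the membrane arm, had control values from 2067 to 2540, with a median of 2263. With 4-HPAA it ran from 1729 to 2345, with a median of 1964. The 4-HPAA values reach lower, and the top 4-HPAA value, that of replicate 3, is within the control range. The difference was −0.19 (SE 0.084, n = 6 per group, limma adjusted p = 0.325), and without replicate 3 it was −0.23 (SE 0.074, limma adjusted p = 0.157).

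Ndufa2, an accessory subunit of the NADH-oxidising arm, showed how far 1 library counts. Its control values ran from 1954 to 2492, with a median of 2367, and 4-HPAA replicates 1 to 6 had 1684, 1621, 2676, 2202, 1873 and 1991. Replicate 3 was above every control and all other 4-HPAA libraries were below the control mean of 2295. The difference was −0.21 (SE 0.11, limma adjusted p = 0.419) with that library and −0.30 (SE 0.091, limma adjusted p = 0.153) without it. Ndufc2, an accessory subunit of the membrane arm, was in contrast low in replicate 3, with 1472 there against 1614 to 1955 in controls. Its difference was −0.17 with replicate 3 and −0.15 without.

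Ndufa4 carries a complex I name but is now counted as a subunit of complex IV. Its control values ran from 7189 to 9397 and its 4-HPAA values from 6227 to 8463, ranges that overlap over most of their length. The difference was −0.17 (SE 0.094, limma adjusted p = 0.427), and −0.19 without replicate 3. Its relative Ndufa4l2, known as a hypoxia-induced gene, was scarce, with control values from 30 to 59 and 4-HPAA values from 26 to 62. Its interval ran from −0.59 to 0.44, the widest of the 38. Ndufab1, the mitochondrial acyl carrier protein, which also serves fatty acid synthesis in mitochondria, had a difference of −0.10 (95% interval −0.27 to 0.06). The highest difference in complex I was that of Ndufa8, an accessory subunit in the intermembrane space, at 0.12 with all libraries and 0.06 without replicate 3.

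The core subunits of complex I were level between the groups. Ndufs1, the large iron-sulphur subunit that takes in electrons near the flavin site, had a mean of 3037 ± 157 among controls and 3041 ± 148 among 4-HPAA livers (SD, n = 6). Its difference was 0.00, with a 95% interval from −0.13 to 0.13. Ndufv1, which binds the flavin, averaged 4817 ± 507 and 4990 ± 650, with an interval from −0.16 to 0.25. Replicate 3 had its highest value, 6258, while the other 5 libraries with 4-HPAA lay between 4407 and 4925. Over the 7 nuclear core subunits of complex I the median difference was 0.00, with 2 negative. Without replicate 3 it was −0.04, with 6 negative. Over the 31 accessory subunits, Ndufa4 and Ndufa4l2 among them, it was −0.06, with 23 negative, and −0.12, with 27 negative.

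The 8 complex I assembly factors were near 0 as a group, and high in 4-HPAA replicate 3 as the subunits were, with a median deviation of 0.18. Their median difference was −0.01 with all libraries, 5 of 8 negative, and 0.03 without 4-HPAA replicate 3, 4 of 8 negative. Ndufaf7, a methyltransferase that acts early in assembly, had the highest difference of all 87 genes. Its control values ran from 333 to 444 and its 4-HPAA values from 392 to 501, so the groups overlapped. The difference was 0.16 (SE 0.089, limma adjusted p = 0.408), and 0.13 without replicate 3. Ndufaf2, a chaperone of late assembly steps, had 255 to 285 in controls and 274 to 312 with 4-HPAA, with a difference of 0.09.

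Ndufaf4, an assembly factor that works in early steps, had the lowest value of replicate 3 against its own controls among the 87. Control values ran from 1035 to 1576, and 4-HPAA replicates 1 to 6 had 1364, 1452, 547, 1338, 1347 and 1145. Replicate 3 held less than any other library, and the rest of the 4-HPAA group lay in the control range. The sign of the difference therefore turned, from −0.12 (SE 0.21) with that library to 0.09 (SE 0.11) without it. Among the others, Ndufaf3 and Ndufaf8 had differences of −0.08 and −0.07, and Ndufaf6 of 0.07, each within its standard error.

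Complex II, succinate dehydrogenase, belongs to both the tricarboxylic acid cycle and the respiratory chain, and all its 4 subunits are nuclear. The median difference was −0.04, with 2 of 4 negative, and −0.05 without 4-HPAA replicate 3, with 3 of 4 negative. Sdha, the flavin subunit that oxidises succinate, ran from 12311 to 15479 in controls, with a median of 14844, and from 12755 to 14253 with 4-HPAA, with a median of 13347. The 4-HPAA values lay inside the control range, and the difference was −0.09 with and −0.08 without replicate 3. Sdhd, a membrane anchor, ran from 6295 to 7417 in controls and from 5552 to 7227 with 4-HPAA. Its difference, −0.14 (SE 0.075, limma adjusted p = 0.393), was the lowest of the complex, and without replicate 3 it was −0.13. Sdhb, the iron-sulphur subunit, and Sdhc, the other anchor, had differences of 0.06 and 0.02, and of 0.02 and −0.03 without that library. Control replicate 6 was the lowest of all controls for Sdha, Sdhb and Sdhc, at 12311, 4770 and 4088, but not for Sdhd, at 7326.

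Complex III, cytochrome bc1, had a median difference of −0.13 over its 8 genes, with 6 negative, and −0.17 without 4-HPAA replicate 3, with 7 negative and 3 at an unadjusted p under 0.05. Both medians were the lowest of the 5 complexes. Those 3, Uqcr10, Uqcr11 and Uqcrh, are small accessory subunits: Uqcrh is the hinge protein that contacts cytochrome c1, and Uqcr10 and Uqcr11 are single-pass membrane subunits. None passed the adjusted threshold, and 9.06% of all genes tested were lower at that unadjusted p without replicate 3.

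Uqcr10 (chromosome 11, 4701973 to 4704342, minus strand, GRCm38) had control values from 3422 to 3958, with a median of 3449. Its values in 4-HPAA replicates 1 to 6 were 2475, 2590, 4065, 3480, 2823 and 3163. Of the 6, 4 lay below every control, replicate 4 lay among them and replicate 3 lay above them. The difference was −0.21 (SE 0.11, limma adjusted p = 0.383), and without replicate 3 it was −0.30 (SE 0.087, limma adjusted p = 0.15), with all 5 libraries below the control mean of 3545.

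Uqcr11 (chromosome 10, 80402997 to 80406830, minus strand) repeated this pattern. Controls ran from 4403 to 5307, with a median of 4759, and 4-HPAA replicates 1 to 6 had 3461, 3108, 6134, 4597, 4007 and 4101. Again replicate 3 was above and 4 others below the whole control range. The difference was −0.21 (SE 0.13, limma adjusted p = 0.491) with all libraries and −0.32 (SE 0.095, limma adjusted p = 0.15) without replicate 3. For Uqcrh, controls ran from 4764 to 6893 and 4-HPAA libraries from 4491 to 6206, and the difference was −0.13 with and −0.19 without replicate 3.

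Uqcrb, an accessory subunit near the coenzyme Q site, went the other way in replicate 3. Its value there was 1405, against 2397 to 3355 in the other 11 libraries. The difference was −0.30 (SE 0.16, limma adjusted p = 0.390) with that library and −0.15 (SE 0.086, limma adjusted p = 0.359) without it. The large subunits differed less. Uqcrc1 and Uqcrc2, the core proteins on the matrix side, had differences of 0.05 (95% interval −0.13 to 0.23) and 0.06 (−0.07 to 0.20), and Uqcrfs1, the Rieske iron-sulphur protein, one of −0.02 (−0.16 to 0.12). Without replicate 3 these were −0.01, 0.06 and −0.05.

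**Figure D3:**
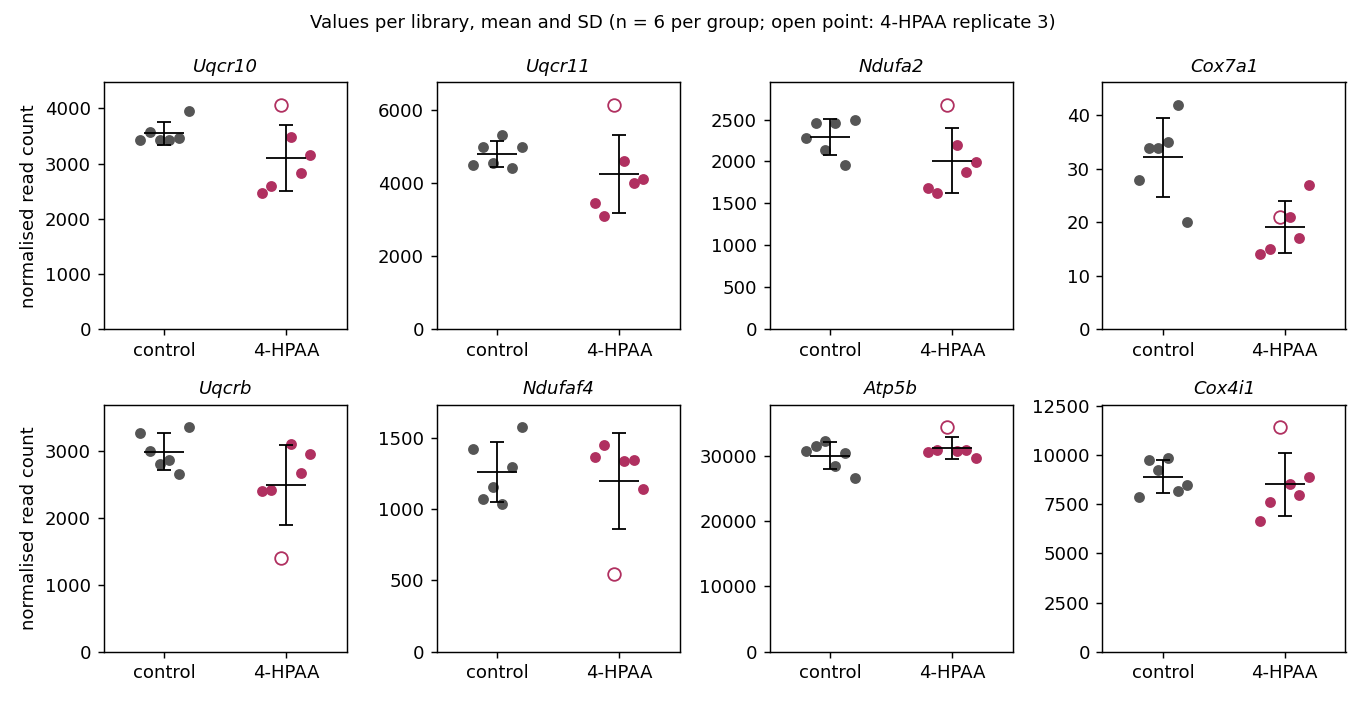
Normalised read counts (y axis, from 0) of 8 genes in control and 4-HPAA livers; each point is 1 library, open for 4-HPAA replicate 3, and the bars give mean and SD, n = 6 per group. Replicate 3 is the highest of its group for Uqcr10, Uqcr11, Ndufa2, Atp5b and Cox4i1 and the lowest for Uqcrb, at 1405, and Ndufaf4, at 547.

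Complex IV, cytochrome c oxidase, was the most uniform in sign. All 12 of its genes tested had negative differences, with a median of −0.08, and all 12 were negative without 4-HPAA replicate 3, with a median of −0.16. At an unadjusted p under 0.05 there was 1 lower gene, Cox7a1, with all libraries and 4, Cox6b1, Cox6c, Cox7a1 and Cox8a, without replicate 3. The shares of all genes tested that were lower at that p were 7.56% and 9.06%. In the libraries taken singly, the median deviation of the complex was −0.29 and −0.24 in 4-HPAA replicates 1 and 2, 0.25 in replicate 3, and between −0.13 and 0.06 in the other 3. Controls lay between −0.10 and 0.05.

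Cox7a1 (chromosome 7, 30184144 to 30186078, plus strand) had both the largest difference of the 87 and nearly the lowest level. It is the isoform of subunit 7a known from heart, skeletal muscle and brown fat. Its values in control replicates 1 to 6 were 28, 34, 34, 35, 42 and 20, and in 4-HPAA replicates 1 to 6 they were 14, 15, 21, 21, 17 and 27. All 6 of the 4-HPAA values lay below the control mean of 32.2, and 1 control, replicate 6, lay among them. The difference was −0.72 (SE 0.22, 95% interval −1.18 to −0.25, limma adjusted p = 0.193), and −0.75 (SE 0.23, limma adjusted p = 0.155) without replicate 3. At values near 20 to 30 reads, counting error alone is a good part of the spread.

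Markers of other cells that a liver sample could hold were read beside Cox7a1. Of 7 skeletal and heart muscle markers, Acta1, Ckm and Mb among them, 0 are in the table. Of 6 adipocyte markers, 2 are in the table, Cfd and Fabp4, while Adipoq, Plin1, Lep and Ucp1 are not. Both were lower with 4-HPAA, with differences of −2.65 (SE 0.73, limma adjusted p = 0.183) and −0.54 (SE 0.19, limma adjusted p = 0.220), or −3.12 and −0.56 without replicate 3, and their sum ran from 469 to 1479 in controls and from 150 to 623 with 4-HPAA. For all 8 stellate cell markers the difference was negative, the median being −0.63, and their sum ran from 6354 to 9750 in controls and from 4038 to 7692 with 4-HPAA. Without replicate 3, 7 of the 8 were negative, with a median of −0.64. Of 6 endothelial markers, 5 had negative differences, the median being −0.25 with and −0.21 without replicate 3, and their sum ran from 3141 to 3880 in controls and from 2896 to 4162 with 4-HPAA. The 8 Kupffer and macrophage markers had a median of −0.07, with 5 negative, and −0.13 without replicate 3. For 5 cholangiocyte markers it was −0.27, with 3 negative, and −0.35 without replicate 3. For 4 red blood cell markers it was −0.46, with 3 negative, and −0.69 without replicate 3. Of 6 T, NK and B cell markers 1 was tested, with a difference of −0.61. The part of these cells in the lower Cox7a1 was not tested. The liver isoform, Cox7a2, is far more abundant, and ran from 4054 to 5590 in controls and from 3526 to 5279 with 4-HPAA. Its difference was −0.09 (95% interval −0.32 to 0.14).

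Other subunits of complex IV stayed closer together. Cox4i1, the main isoform of the largest nuclear subunit, averaged 8906 ± 838 in controls and 8520 ± 1624 with 4-HPAA, with replicate 3 at 11434 and the other 5 between 6653 and 8883. The difference was −0.08 with replicate 3 and −0.17 (SE 0.088, limma adjusted p = 0.305) without it. Cox5a and Cox5b, which sit on the matrix side, had differences of −0.05 and −0.10. Cox6a1, the liver isoform of subunit 6a, had −0.04 with replicate 3, where its value was 6438 against 3179 to 4910 elsewhere, and −0.17 without it. Cox8a, a small membrane subunit, had 4568 in replicate 3 and 2166 to 3860 elsewhere. Its difference was −0.12 with that library and −0.24 (SE 0.11, limma adjusted p = 0.252) without it. Cox7a2l, which joins complexes III and IV in supercomplexes, had a difference of −0.06 (95% interval −0.22 to 0.09).

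Complex V, the ATP synthase, had a median difference of −0.05 over 17 genes, with 14 negative, and −0.11 without 4-HPAA replicate 3, with 15 negative and 1, Atp5mpl, at an unadjusted p under 0.05. Over all genes tested 9.06% were lower at that p without replicate 3. The catalytic head was level. Atp5a1, its alpha subunit, averaged 29151 ± 2003 in controls and 30432 ± 2082 with 4-HPAA, and Atp5b, the catalytic beta subunit, 30011 ± 2100 and 31187 ± 1627. Both had a difference of 0.06, with intervals from −0.09 to 0.21 and from −0.09 to 0.20. Without replicate 3, the 5 other 4-HPAA values of Atp5a1 lay between 29197 and 30053, a narrow band inside the control range of 26399 to 31729. These were among the few members not lower in 4-HPAA replicates 1 and 2.

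Outside the head, Atp5f1, subunit b of the stalk, ran from 8887 to 10426 in controls, with a median of 9166, and from 7385 to 9723 with 4-HPAA, with a median of 8441. Its lowest value was that of replicate 3. The difference was −0.17 (SE 0.080, limma adjusted p = 0.345), and −0.13 without that library. Atp5l, subunit g, and Atp5mpl, a small membrane subunit, had differences of −0.09 and −0.11. Atp5g1, Atp5g2 and Atp5g3 encode the same ring subunit c. Their differences were −0.00, 0.07 and −0.09, and the groups overlapped for each. Atp5d, the delta subunit of the central stalk, had the lowest difference of the complex without replicate 3, at −0.15 (SE 0.10).

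The subunits were also divided by role, after the values had been seen, into the nuclear core subunits of complexes I and II, the large subunits of complex III and the head and central stalk of complex V on one side, and all other subunits on the other. The 19 core genes had a median difference of 0.00, with 8 negative, and −0.03 without 4-HPAA replicate 3, with 14 negative. The 60 accessory genes had −0.08, with 51 negative, and −0.13, with 56 negative. All 15 genes lower at an unadjusted p under 0.05 without replicate 3 were accessory, and 9.06% of all genes tested were lower at that p. The 2 kinds differ in size too: the median length of the messenger RNA was 1653 bases for the core genes and 659 for the accessory ones, against 2930 for all genes tested. The lengths overlap, from 421 to 3171 bases for the core genes and from 366 to 2020 for the accessory ones. The parts of role and of length in the differences were not tested.

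Across the 87 genes the difference moved with messenger RNA length. Length was taken as that of the shortest principal transcript in the annotation. The rank correlation of the difference with length was 0.38 with all libraries and 0.57 without 4-HPAA replicate 3, shorter messengers being lower. Over all genes tested it was 0.05 and 0.18. Taking each gene's longest coding transcript instead gave 0.37 and 0.53 for the 87. These are descriptions across genes of the same 12 libraries, and the genes are not independent.

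The genes were also split by length into 3 groups of 29. The 29 shortest messengers, with a median of 535 bases, had a median difference of −0.11, with 26 negative. Without replicate 3 it was −0.17, with all 29 negative and 13 lower at an unadjusted p under 0.05. The 29 longest, with a median of 1623 bases, had −0.01 with 16 negative. Without replicate 3 they had −0.04, with 20 negative and 1 lower at that p, Ndufa13. Over all genes tested 9.06% were lower at that p without replicate 3. Within the 87 genes the relation was strongest in the 3 libraries of fewest reads. The rank correlation of a library's deviations with length over the 87 genes was 0.61, 0.59 and 0.44 in 4-HPAA replicates 1, 2 and 5, and between −0.29 and 0.36 in the other 9. Over all genes tested the values in those 3 libraries were 0.18, 0.15 and 0.03. There the highest was 0.20, in 4-HPAA replicate 6, and control replicate 5, with the most reads, had 0.10. The part of RNA quality or library preparation in this was not tested.

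In 4-HPAA replicate 3 the deviations moved with base composition more than with length. The rank correlation with the GC content of the messenger was 0.57 over the 87 genes and 0.59 over all genes tested, and with length it was −0.19 over the 87 and −0.28 over all genes tested. Controls had values with GC between −0.39 and 0.61 over the 87. Of the 3 lowest genes there, Ndufaf4 and Uqcrb, at −1.19 and −1.08, have 39.5 and 42.2% GC, where the median of the 87 is 51.5%, and Cox7a1, at −0.56, has 54.7%. The 3 highest, Ndufa4l2, Cox6a1 and Ndufs7, at 0.58, 0.57 and 0.57, have 59.3, 58.8 and 60.7%. Other high genes are below the median GC, such as Ndufaf5 and Ndufb6, both at 0.49, with 47.2 and 48.4%. The ribosomal proteins, another large family of short messengers, were also high in that library, with medians of 0.35 over 77 cytosolic and 0.24 over 78 mitochondrial ones. In 4-HPAA replicates 1 and 2 the same families had −0.12 and −0.07, and −0.08 and −0.10, nearer to 0 than the −0.24 and −0.16 of the 87 genes.

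**Figure D4:**
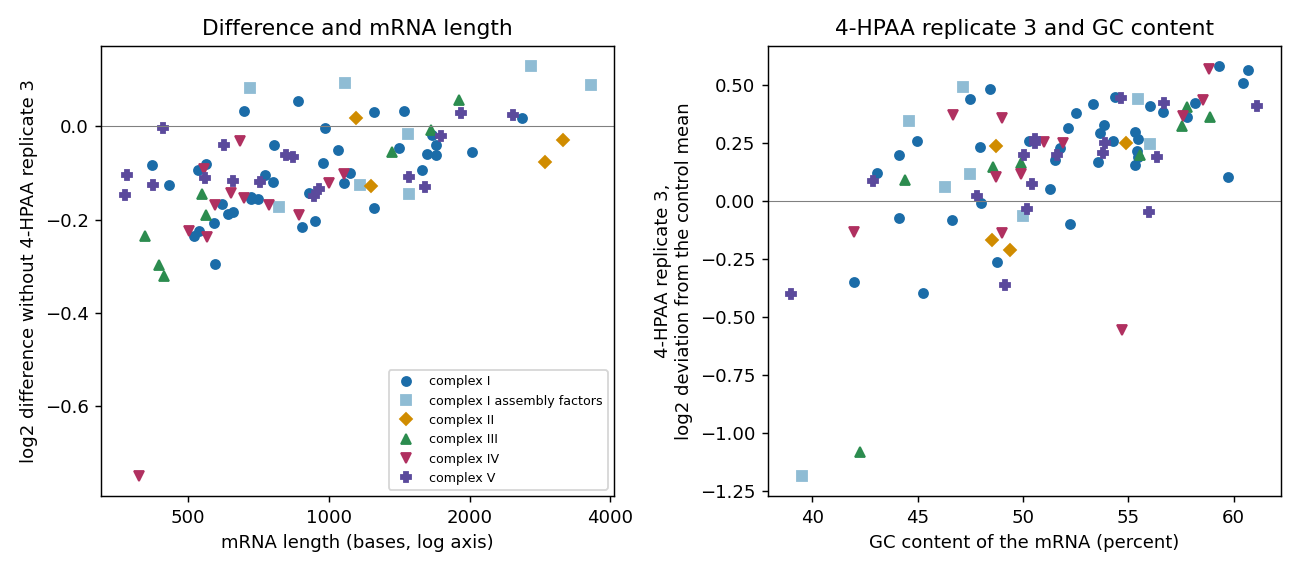
Left, log2 difference without 4-HPAA replicate 3 (y axis) against messenger RNA length in bases (x axis, log scale); right, log2 deviation of 4-HPAA replicate 3 from the control mean (y axis) against GC content in percent (x axis). Each point is 1 of the 87 genes tested, marked by complex, and the rank correlations are 0.57 on the left and 0.57 on the right.

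Levels within each complex were compared per length of messenger, as the control mean of normalised reads per 1000 bases. The highest were Atp5g3, at 16021, Atp5b, at 15663, and Uqcrq, a small complex III subunit, at 14372. Ndufa4, at 13497, led the genes with a complex I name, ahead of Ndufb9, at 7224. Cox6c, at 13304, led complex IV, and Cox7a1 had 81.8. Within complex II, Sdhd, Sdha and Sdhb were close, at 5665, 4957 and 4776, and Sdhc had 1499. The assembly factors lay between 108 for Ndufaf5 and 595 for Ndufaf1, a range that also holds Ndufb4, at 561, and Atp5s, at 120. Cox7a1, Ndufa4l2, at 45.5, and Cox6b2, at 15.1, were below it. These levels depend on which transcript is taken as the gene's own. Copies of many of these genes exist as processed pseudogenes, and the labels do not say how reads shared with such copies were counted.

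The promoters were read for sites of factors known to drive this pathway, since the genes tended to be high or low in the same libraries. Of the 88 genes, 72 have an entry in the RefSeq promoter table (GRCm38.p6), and the 250 bases upstream of the start were searched on both strands. The core of the ETS site bound by GABP, also called NRF2, CCGGAAG, was in 13 of the 72, or 18.1%, and in 13.4% of all 10433 promoters of genes in the table. The NRF1 site, GCGC and TGCGC with any 1 base between them, was in 13, or 18.1%, and in 8.10% of all. A site of the estrogen-related receptors, TNAAGGTCA, was in 2, or 2.78%, and in 0.729% of all, and a YY1 site, AANATGGCG, was in 1, or 1.39%, and in 2.12% of all. Sdhd, Cox6a1 and Atp5h had both of the first 2. The ETS and NRF1 strings do not overlap in the sequences shown. A match is a string of letters and not a measured site.

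The median differences of genes with and without these matches were set side by side, without a test. For NRF1 the median was −0.05 over 13 genes with a match and −0.06 over 58 without, and without 4-HPAA replicate 3 it was −0.09 and −0.11. For the ETS core it was −0.07 over 13 and −0.06 over 58, and then −0.13 and −0.09. The upstream sequences of 4 genes are shown 5′ to 3′ in the direction of transcription, matches in capitals on whichever strand they lie. Uqcr11 and Cox7a1 are among the 3 of smallest p without replicate 3, the first with 1 ETS match and the second with none of the 4, and Sdhd and Cox6a1 hold both ETS and NRF1 matches. Coordinates are GRCm38.
Uqcr11, chr10:80406822-80407071, strand minus: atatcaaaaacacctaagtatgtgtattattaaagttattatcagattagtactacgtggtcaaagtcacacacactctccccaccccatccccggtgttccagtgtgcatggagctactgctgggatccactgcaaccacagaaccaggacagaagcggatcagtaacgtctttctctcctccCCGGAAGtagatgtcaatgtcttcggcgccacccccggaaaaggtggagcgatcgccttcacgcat
Cox7a1, chr7:30183921-30184170, strand plus: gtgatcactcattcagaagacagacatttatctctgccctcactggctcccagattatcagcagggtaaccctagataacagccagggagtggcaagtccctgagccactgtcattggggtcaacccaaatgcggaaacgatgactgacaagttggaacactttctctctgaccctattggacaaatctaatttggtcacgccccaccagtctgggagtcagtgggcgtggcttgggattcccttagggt
Sdhd, chr9:50603850-50604099, strand minus: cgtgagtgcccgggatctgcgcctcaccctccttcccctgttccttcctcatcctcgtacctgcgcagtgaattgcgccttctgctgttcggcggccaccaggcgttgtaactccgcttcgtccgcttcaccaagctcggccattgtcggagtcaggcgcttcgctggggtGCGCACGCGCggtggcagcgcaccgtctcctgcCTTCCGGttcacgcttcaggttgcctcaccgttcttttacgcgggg
Cox6a1, chr5:115348959-115349208, strand minus: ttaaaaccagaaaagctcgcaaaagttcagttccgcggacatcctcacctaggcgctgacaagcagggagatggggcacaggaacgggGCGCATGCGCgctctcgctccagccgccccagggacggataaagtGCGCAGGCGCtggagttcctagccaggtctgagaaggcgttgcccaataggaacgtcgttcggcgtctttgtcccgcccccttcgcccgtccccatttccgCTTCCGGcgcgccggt

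The genes shown had the following differences, and the part of the strings in them was not tested. Cox7a1, which has neither string, had a difference of −0.72, and Uqcr11, with 1 ETS match, had −0.21. Sdhd and Cox6a1, with both strings, had −0.14 and −0.04, and without replicate 3 −0.13 and −0.17.

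The rest of the machinery around the complexes was read from lists of genes, none of which had a gene past the adjusted threshold. The list of carriers, porins and uncoupling had 10 genes tested: Slc25a3, Slc25a4, Slc25a5, Vdac1, Vdac2, Vdac3, Ucp2, Nnt, Atpif1 and Aox1. Aox1 is an aldehyde oxidase, neither carrier, porin nor uncoupler, and had −0.17, or −0.24 without 4-HPAA replicate 3. The median of the 10, Aox1 among them, was −0.11, with 8 negative, and −0.14, again with 8 negative, without that library. At an unadjusted p under 0.05, 3 were lower, Slc25a4, Nnt and Atpif1, and without that library 2, Atpif1 and Ucp2. Over all genes tested 7.56% and 9.06% were lower at that p. Atpif1 had a difference of −0.30 (SE 0.14, limma adjusted p = 0.325), and −0.37 (limma adjusted p = 0.164) without replicate 3. For Ucp2 these were −0.45 (SE 0.21, limma adjusted p = 0.342) and −0.54 (limma adjusted p = 0.221). Slc25a4, the ADP/ATP carrier isoform known from heart and muscle, had control values from 88 to 137 and 4-HPAA values from 67 to 119. Its difference was −0.35 (SE 0.15, limma adjusted p = 0.304), and −0.34 without replicate 3. Those of Slc25a3, Slc25a5, Vdac1, Vdac2 and Vdac3 were 0.04, −0.02, −0.05, −0.05 and 0.05. Nnt, the transhydrogenase that makes NADPH from the proton gradient, had 1146 to 1650 in controls and 1079 to 1502 with 4-HPAA, with a difference of −0.23 (SE 0.10, limma adjusted p = 0.324), and −0.21 without replicate 3. In 4-HPAA replicate 3 this list had a median deviation of 0.01, where the complexes were high.

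The assembly factors of complexes II to V had a median of −0.02 over 35 genes, with 1 lower and 3 higher at an unadjusted p under 0.05. Without 4-HPAA replicate 3 the median was −0.05, with 4 lower and 3 higher. Over all genes tested 7.56% were lower and 7.26% higher at that p, and 9.06% and 10.6% without that library. Cmc1, which holds an early intermediate of complex IV, had control values from 411 to 540 and 4-HPAA values from 323 to 417, with a difference of −0.29 (SE 0.092, limma adjusted p = 0.199). Cox15, which makes the heme a of complex IV, differed in the other direction, by 0.27 (SE 0.096, limma adjusted p = 0.220), with 627 to 823 in controls and 691 to 1012 with 4-HPAA. Complex I assembly factors outside the Ndufaf names had a median of 0.00 over 9 genes, with 1 lower and 2 higher at that p, and −0.06 without replicate 3, with 0 in either direction. Ecsit and Dmac1, both of the membrane arm assembly, had 0.18 and 0.22, or 0.12 and 0.13 without replicate 3, which held the highest value of each.

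Genes that feed electrons in had medians near 0. The 21 genes of electron carriers and coenzyme Q synthesis had −0.00, with 11 negative, and −0.01, also with 11 negative, without replicate 3. Among them Coq8b, a kinase-like protein of coenzyme Q synthesis, had −0.31 (SE 0.12, limma adjusted p = 0.247), and −0.40 without replicate 3. The 19 genes of the tricarboxylic acid cycle and pyruvate dehydrogenase had −0.03, with 11 negative, and −0.03, with 12 negative, without that library. Fh1, fumarate hydratase, which acts on the product of complex II, had control values from 4039 to 5447 and 4-HPAA values from 5279 to 7426. Its difference was 0.39 (SE 0.11, limma adjusted p = 0.176), and without replicate 3 it was 0.42 (limma adjusted p = 0.143). Of its 6 4-HPAA values, 5 lay above every control. Dlat, a subunit of pyruvate dehydrogenase, had −0.27 (SE 0.098, limma adjusted p = 0.238), and −0.24 without replicate 3.

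The nuclear regulators of mitochondrial genes had a median of −0.03 over 23 genes with all libraries and 0.07 without 4-HPAA replicate 3, in which their median deviation was −0.26. Tfam, which packages and transcribes mitochondrial DNA, ran from 1101 to 1337 in controls and from 902 to 1254 with 4-HPAA, with a difference of −0.19 (SE 0.088, limma adjusted p = 0.329) and −0.16 without replicate 3. Tfb1m, which methylates mitochondrial ribosomal RNA, had 0.24 (SE 0.11, limma adjusted p = 0.301) and 0.22. The cytosolic ribosomal proteins, 77 genes, had a median of 0.01, with 35 negative, and the mitochondrial ones, 78 genes, had 0.00, with 38 negative. Without replicate 3 they had −0.05, with 59 negative, and −0.04, with 51 negative, beside the −0.11 of the 87 genes of the complexes.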

How the data were processed

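Libraries were made from liver RNA with the directional TruSeq mRNA kit, per the labels' protocols. FastQC 0.11.9, cutadapt, STAR, HTSeq, DESeq2 1.28.1, edgeR and the build GRCm38 are named in the submitters' processing notes, without role or order. Neither labels nor notes say whether strand was used in counting. The deposited values, 1 row per gene under an Ensembl transcript ID, are whole numbers that the authors had scaled by library and rounded, and were handled as a score. The scaling was inferred from gaps among the low deposited values, as were the factors that give the estimated reads. The table's smallest value is 2. GENCODE M21 named 13200 of 13267 IDs. For 37 of the 88 genes the listed ID is a transcript of another type than protein coding, and the value was taken as the gene's.

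Count models were not used, since the values are scaled. limma 3.58.1 (R 4.3.3; eBayes with trend and robust) was fitted to log2(value + 1) of 12720 genes that reached 10 in at least 6 libraries, without covariates, and for 12686 genes without 4-HPAA replicate 3. Fold changes of low genes are understated on this scale. P-values are two-sided and adjusted by Benjamini-Hochberg, threshold 0.05. Intervals are 95%. Length and GC content are those of the shortest APPRIS principal transcript of support level 1, or of any level where there was none. The method was tested on simulated data. Among 30 pairs of libraries within a group, chi-square per gene was 18.9 to 120, so none was a duplicate.

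Genes named are the 4 of smallest p in each complex, a list of main isoforms and core subunits, the highest and lowest without replicate 3 in each complex, and the 2 of smallest p in each related list. One gene of this rule is not reported here. Genes of the 15 at an unadjusted p under 0.05, of the levels per length and of the extremes of replicate 3 (Ndufaf4 among them), the trimming of the cytosolic ribosomal list to plain subunit names, and the groups of core and accessory subunits and of length, were chosen after their values were seen. The other Slc25a genes, the Vdac genes, Atpif1, Ucp2 and Aox1 were also given after their values were seen. The genes and lists were chosen with earlier results of these data known. Alternatives were other scalings, filters and pseudocounts, array weights, a replicate block and each library left out. 0 columns of other samples were in the table.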

Additional observations from a re-analysis of the deposited data

Results flagged for a closer look

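Chance alone would single out about 1 in 20 groups of 6 in this way. Of 100 groups looked at, 8 had 1 library far from the other 5, that is, with a gap to its neighbour above 0.625 of the group's range. In 3 cases it was 4-HPAA replicate 3, as the highest: Atp5a1 at 34620, Atp5b at 34373 and Ndufv1 at 6258. These 3 are large catalytic or core subunits, for which the other 5 livers of the group were close together.

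In the other 5 cases it was control replicate 6. This liver was low for Sdhc, at 4088, and for complex II as a whole, with a median deviation of −0.2022 from the control mean. It was high for 3 small subunits, Cox7a2 at 5590, Uqcr10 at 3958 and Uqcrh at 6893. Its rank correlation of deviations with messenger length over the 87 genes was −0.17 and with GC content −0.36, and it had 24342992 estimated reads, the fewest of the controls. Their part in these values was not tested.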

How the results depend on the processing

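In all 22 alternatives, 0 of the 87 genes passed the adjusted threshold, and the smallest adjusted p, for Cox7a1, was 0.0609 under array weights, which gave 4-HPAA replicate 3 a weight of 0.188. Over all genes tested the count was 0 as reported, 139 with array weights and 11 with the replicate block, and 0 to 193 with 1 library left out (5 without control replicate 1, 193 without 4-HPAA replicate 4). Genes of the complexes lower at an unadjusted p under 0.05, 2 as reported, came to 6 with equal library totals, 6 with quantile normalization, 1 with a filter at 50, 1 without trend, 17 with array weights and 12 without 4-HPAA replicate 3 under the replicate block. With 1 library left out they were 1 to 15 (15 without 4-HPAA replicate 3, 8 without replicate 4, 4 without replicate 6 or control replicate 5, and 1 without 4-HPAA replicate 1, 2 or 5 or control replicate 1, 2 or 6). Higher genes were 0 to 1 (1 without 4-HPAA replicate 6 or control replicate 6).

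The median difference of the 87 genes was −0.11 with array weights and −0.12 without replicate 3 under the block. For complex III it was −0.18 and −0.18, for complex IV −0.17 and −0.16, and for complex V −0.11 and −0.12. With 1 library left out it ran from −0.11 to −0.02 over all, −0.10 to −0.01 in complex I, −0.03 to 0.03 in the assembly factors, −0.08 to −0.02 in complex II, −0.17 to −0.057 in complex III, −0.16 to −0.041 in complex IV and −0.11 to −0.0025 in complex V.

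Among the 43 genes named by the rule, 12 changed sign under some setting. Ndufaf4, named outside it, turned from −0.12 to 0.09 without 4-HPAA replicate 3. With equal totals these were Ndufs1 −0.028 and Sdhc −0.014. With recomputed median-of-ratios factors it was Ndufs1 −0.0011. With quantile normalization they were Atp5a1 −0.033, Atp5b −0.045, Ndufs1 −0.011, Sdhc −0.011 and Ndufa4l2 0.081. With array weights they were Ndufv1 −0.046, Sdhb −0.0014, Sdhc −0.053 and Uqcrc1 −0.022, and without replicate 3 under the block Sdhc −0.014. With 1 library left out the ranges were −0.15 to 0.0059 for Atp5d, −0.17 to 0.036 for Cox6a1, −0.20 to 0.042 for Ndufa4l2, −0.17 to 0.073 for Ndufaf8, −0.015 to 0.026 for Ndufs1, −0.019 to 0.083 for Ndufv1, −0.029 to 0.046 for Sdhc, −0.0065 to 0.077 for Uqcrc1 and −0.054 to 0.011 for Uqcrfs1. The cause was not tested.

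The labels do not say whether the replicate numbers pair the livers, and the 6 correlations by number cannot decide it. Deviations of same-numbered libraries correlated at 0.21, −0.07, 0.24, 0.28, −0.01 and −0.18, and 3 of 6 libraries matched their own number best. With the number as a block, 2 genes of the complexes were lower at an unadjusted p under 0.05 and 0 passed, as without it. At values near 20, as for Cox7a1, counting error limits what can be seen.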
